A study of Gallus gallus with 72 samples.

Results

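Haemoglobin and the red cell anion exchanger were followed in chicken breast muscle through 4 genes, HBA1, HBAD, HBE1 and SLC4A1. They were taken from the deposited count table by gene symbol, and all 4 were present among its 12046 genes. The table holds 72 RNA-seq libraries from 3 breed groups, which are Cornish purebreds, White Plymouth Rock purebreds and the crossbred progeny of the 2, hereafter the crossbred. Each group was sampled before hatch at embryonic day 17 (E17) and afterwards at 1, 21 and 42 days of age (D1, D21, D42), and each of the 12 combinations of breed and age has 6 libraries. All birds are labelled as male broilers, and the labels name no treatment. RNA came from frozen breast muscle; the labels' source name speaks of myofibroblasts, but the protocol describes tissue, so the libraries were read as whole muscle with the blood it held. Nothing states that the 6 libraries of a group came from separate birds, so p-values speak only of the variation among these samples, part of which may be technical.

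Haemoglobin is assembled from alpha-type and beta-type globin chains, which in the chicken are encoded in separate clusters whose genes are used at different ages, a sequence known as globin switching. Bird red cells keep their nucleus, and circulating cells still hold globin transcripts. SLC4A1 encodes band 3, the membrane protein that exchanges chloride for bicarbonate and anchors the membrane skeleton, and its transcript is a standard marker of the red cell lineage. Transcripts of haemoglobin in muscle are commonly read as coming from the blood it holds. In bulk tissue, fewer red cells and less transcript per red cell cannot be told apart.

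HBA1 (ENSGALG00010019732) lies on chromosome 14 at chr14:12118602-12119420 in the GRCg7b assembly and encodes the alpha-A chain, the main alpha chain of adult blood. HBAD (ENSGALG00010019253) lies in the same cluster at chr14:12115577-12116504 and encodes alpha-D, an alpha chain made in embryonic and adult red cells. HBE1 (ENSGALG00010003363) lies in the beta cluster at chr1:196007679-196008907. Its RefSeq synonyms are HBB-H and HBBH, the hatching-type beta globin of the chicken, so it is named by its symbol here and not as the embryonic epsilon gene, which RefSeq lists separately as HBE. SLC4A1 (ENSGALG00010024885) lies at chr27:2649798-2668681. These spans are whole genes as RefSeq gives them.

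Globin copies resemble one another closely, and this bears on every globin value below. RefSeq places 7 globin genes in both clusters, and 4 of them have a row in the count table; HBE, HBBR and HBZ were not analysed here. Reads from similar copies may have been split between rows or placed in the wrong one, most of all between HBE1 and its beta cluster neighbours. HBBA, the adult beta chain gene at chr1:196004356-196005887, is given beside the members where it helps to place them. No transcript lengths were at hand, so levels were not compared between genes, only changes of the same gene and changes in the ratio of 2 genes.

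The shallowest library, crossbred D1 library 1, had 16673085 counts, the next 47478167 and the deepest 75670549. The members were well covered, with at least 382 counts of HBA1, 99 of HBAD and 182 of SLC4A1 in every library, while HBE1 reached 0 counts in 3 libraries at D42. Of 10 red blood cell markers, 5 were in the table, and none was at 0 in all libraries of a group. Myofibre markers, 7 of 10 in the table, summed to between 19215 and 120405 CPM. Levels are CPM, read counts scaled to a common library size with the trimmed mean of M values over all 72 libraries.

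All 3 globins were highest at E17 and lowest at D42, while the stage means of SLC4A1 differed less and were lowest at D42. HBE1 had the steepest course, from a mean of 57.6 ± 27.4 CPM at E17 to 0.936 ± 1.11 at D42 (SD, n = 18). HBA1 went from 280 ± 87.4 to 30.3 ± 33.8 CPM, and HBAD from 156 ± 46.7 to 10.8 ± 17.8 CPM. The exchanger SLC4A1 stood at 34.9 ± 10.4, 32.3 ± 10.996, 30.1 ± 7.52 and 13.9 ± 6.69 CPM at the 4 stages in turn, with Cornish means of 44.9 ± 6.58 at E17 and 29.6 ± 4.60 at D21 (n = 6). The step from E17 to D21 was not tested. The 4 haemoglobin rows together, HBBA included, took a median of 0.111% of all counts at E17, 0.0274% at D1, 0.0192% at D21 and 0.00609% at D42, each over 18 libraries.

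For HBA1 the lowest, median and highest of the 6 libraries at E17 were 315, 344 and 463 CPM in Cornish, 176, 261 and 319 in crossbred, and 151, 224 and 301 in White Plymouth Rock. At D1 they were 102, 119 and 165 in Cornish, 62.3, 80.4 and 106 in crossbred, and 49.8, 73.4 and 292 in White Plymouth Rock. No Cornish or crossbred library at D1 reached its breed's E17 range, and 1 White Plymouth Rock library, number 6, did. HBA1 at D21 was 24.4, 60.8 and 130 CPM in Cornish, 39.6, 71.4 and 164 in crossbred, and 58.5, 74.3 and 118 in White Plymouth Rock. By D42 it was 17.1, 26.5 and 160 in Cornish, 10.8, 24.1 and 37.0 in crossbred, and 8.21, 16.03 and 41.7 in White Plymouth Rock. At D42 the breeds overlapped, and Cornish library 6 alone stood above 100 CPM.

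HBAD followed the same order of stages. At E17 the lowest, median and highest values were 158, 196 and 245 CPM in Cornish, 108, 153 and 171 in crossbred, and 69.5, 131 and 160 in White Plymouth Rock. The D1 libraries held 36.1, 47.0 and 64.4 CPM in Cornish, 17.5, 28.5 and 48.8 in crossbred, and 13.8, 29.3 and 116 in White Plymouth Rock. Again the White Plymouth Rock maximum was library 6. HBAD at D21 stood at 8.78, 24.7 and 46.2 CPM in Cornish, 13.9, 31.9 and 62.6 in crossbred, and 24.5, 34.2 and 68.0 in White Plymouth Rock. At D42 the values were 2.16, 8.23 and 80.8 in Cornish, 2.76, 6.79 and 11.5 in crossbred, and 3.76, 5.14 and 12.8 in White Plymouth Rock. The D42 maximum in Cornish was library 6, as for HBA1.

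HBE1, the hatching-type beta globin, had at E17 65.2, 88.1 and 109.7 CPM in Cornish, 20.6, 57.1 and 74.6 in crossbred, and 13.3, 40.4 and 47.8 in White Plymouth Rock. At D1 these were 4.76, 7.70 and 12.01 in Cornish, 2.40, 3.49 and 10.4 in crossbred, and 0.943, 4.91 and 14.8 in White Plymouth Rock. The E17 and D1 ranges were separate in Cornish and the crossbred and overlapped in White Plymouth Rock. At D21 the values were 0.859, 2.53 and 6.11 CPM in Cornish, 1.41, 2.77 and 8.41 in crossbred, and 3.15, 3.80 and 6.65 in White Plymouth Rock. At D42 they were 0.0588, 0.567 and 4.65 in Cornish, 0, 0.848 and 1.33 in crossbred, and 0, 0.600 and 2.10 in White Plymouth Rock. The 3 libraries without a count were crossbred D42 libraries 2 and 3 and White Plymouth Rock D42 library 1, where a count of 0 allows up to 3 counts, or 0.0622, 0.0941 and 0.0633 CPM. These limits cover counting error only.

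SLC4A1, the anion exchanger, had at E17 35.5, 43.4 and 55.1 CPM in Cornish, 21.0, 35.4 and 44.5 in crossbred, and 16.4, 28.5 and 33.7 in White Plymouth Rock. At D1 it had 26.3, 34.1 and 51.1 in Cornish, 21.7, 26.7 and 43.2 in crossbred, and 12.9, 29.4 and 55.1 in White Plymouth Rock. In every breed the D1 range overlapped that at E17, unlike the globins of Cornish and the crossbred. At D21 the exchanger stood at 24.6, 28.1 and 36.7 CPM in Cornish, 19.4, 32.2 and 51.3 in crossbred, and 22.3, 27.7 and 29.9 in White Plymouth Rock. At D42 it stood at 9.51, 14.8 and 35.6 in Cornish, 5.71, 13.7 and 21.1 in crossbred, and 4.62, 11.2 and 14.9 in White Plymouth Rock. The White Plymouth Rock ranges at D21 and D42 did not meet.

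**Figure D1:**
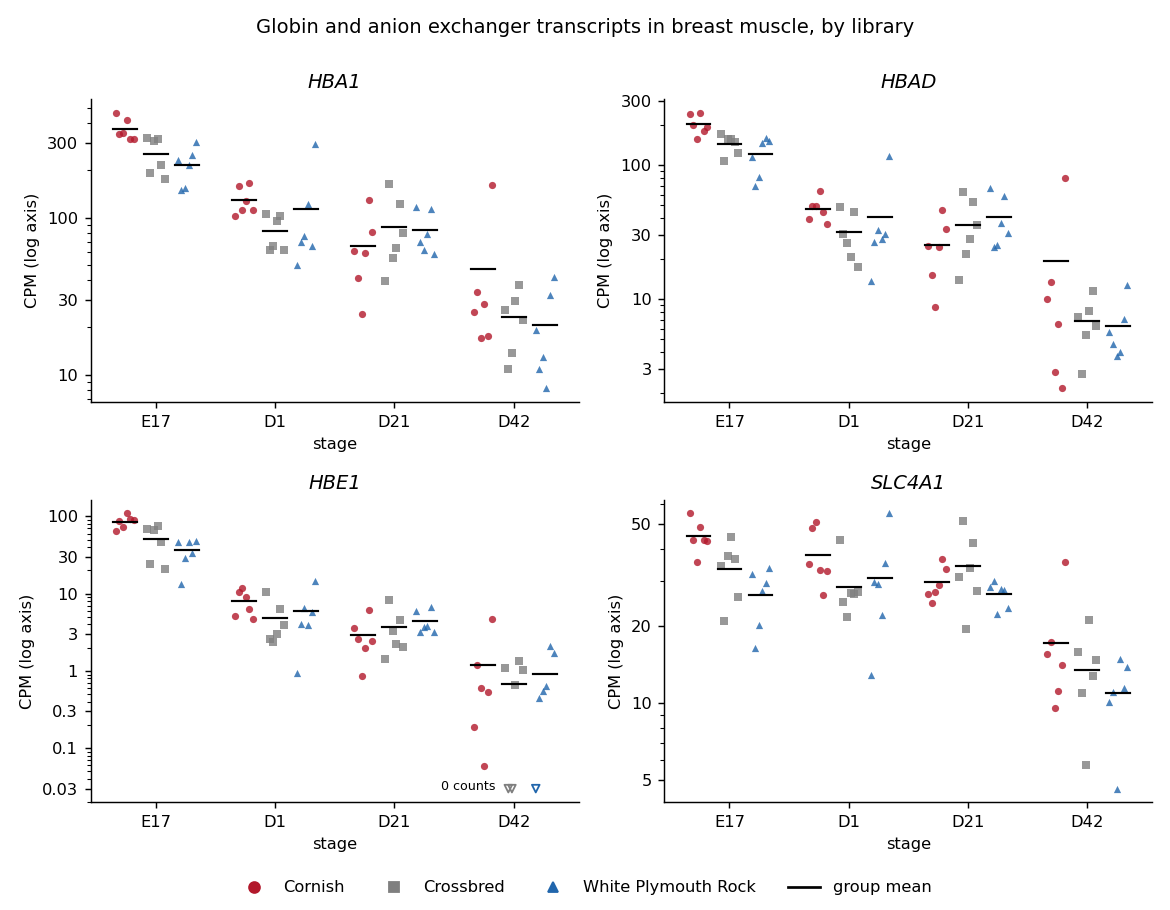
Each point is 1 library and each black bar the mean of 6, with CPM on a log axis and the 4 stages along the horizontal axis; open triangles at the foot of the HBE1 panel mark libraries with 0 counts. The globins step down after E17 and again after D21, SLC4A1 steps down after D21, and Cornish D42 library 6 and White Plymouth Rock D1 library 6 stand above their groups.

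Ranking the 12 groups by mean log2 CPM gave few clear steps, where a step means a gap to the next group above the larger of the 2 SDs. For HBA1 and HBAD, Cornish E17 stood above crossbred E17 and White Plymouth Rock E17 stood above Cornish D1, and no other neighbours differed beyond their spread. HBE1 had both of these steps and a further one from Cornish D21 to Cornish D42. For SLC4A1 the single step lay between White Plymouth Rock E17 and Cornish D42. These orders are descriptions made from the same values and carry no test.

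The stage comparison asks how each transcript changed between successive ages, averaged over the 3 breeds. From E17 to D1 all 3 globins fell. HBE1, the hatching-type beta chain, changed by a log2 fold change of -3.15 ± 0.35 (SE), an 8.85-fold lower level with an adjusted p of 2.98e-12. The alpha-D gene HBAD changed by -1.94 ± 0.28, or 3.84-fold lower (adjusted p = 8.38e-09), and the alpha-A gene HBA1 by -1.35 ± 0.24, or 2.55-fold lower (adjusted p = 7.65e-07). SLC4A1 did not pass the test, with a change of -0.08 ± 0.15 and an adjusted p of 0.621. Over all 11932 genes tested, 35.6% were called lower at this step, so a call by itself is common and the members are better described by the size of their changes. HBBA, the adult beta gene, changed by -1.56 ± 0.25. The median change over all genes was 0.01.

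From D1 to D21, averaged over breeds, 3 of the 4 members did not pass. HBA1 changed by -0.40 ± 0.23 (adjusted p = 0.113), HBAD by -0.20 ± 0.27 (adjusted p = 0.507) and SLC4A1 by -0.06 ± 0.15 (adjusted p = 0.737), where 36.8% of all genes were called lower. HBE1 fell by 0.71 ± 0.33 on the log2 scale with an adjusted p of 0.0497. That call was lost under DESeq2, under the replicate block (-0.70, adjusted p = 0.0520), without White Plymouth Rock D1 library 6 and Cornish D42 library 6 (-0.54, adjusted p = 0.101), and without any 1 of 16 single libraries. These were D1 libraries Cornish 2, 3 and 4, crossbred 1, 5 and 6 and White Plymouth Rock 3, 5 and 6, and D21 libraries Cornish 3 and 4, crossbred 1, 4 and 6 and White Plymouth Rock 2 and 6, with changes from -0.72 to -0.54. For HBA1 the change reached -0.54 (adjusted p = 0.0317) without Cornish D21 library 5 and -0.53 (adjusted p = 0.0358) without crossbred D21 library 2.

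From D21 to D42 all 4 genes fell together. HBE1 changed by -1.99 ± 0.36, HBAD by -1.85 ± 0.28, HBA1 by -1.50 ± 0.24 and SLC4A1 by -1.16 ± 0.15, with adjusted p-values between 3.31e-08 and 1.66e-05. As folds these are 3.97, 3.60, 2.82 and 2.23 times lower. At this step 15.6% of all genes were called lower. Leukocyte markers rose in the same interval, with 11 of 14 measured called higher and a median change of 0.98, while 0 of 7 myofibre markers passed and 3 of 12 endothelial markers fell. The part of these other cells in the fall of the members was not tested.

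Over the whole interval from E17 to D42, HBE1 changed by -5.84 ± 0.40, HBAD by -3.99 ± 0.31, HBA1 by -3.25 ± 0.25 and SLC4A1 by -1.30 ± 0.15. These correspond to levels 57.4, 15.9, 9.50 and 2.46 times lower. The call rule was passed downward by 41.2% of all genes. Only HBE1 among the members had no D42 library within its E17 range across the 3 breeds, a separation seen for 15.2% of genes in that direction. For HBA1 and HBAD the overlap came from Cornish D42 library 6 alone, since the other D42 libraries reached at most 41.7 and 13.5 CPM against E17 minima of 151 and 69.5 CPM. All of 14 leukocyte markers and all of 7 myofibre markers measured were called higher over the same interval, and their part in the lower shares of the members was not tested. Calls were common here, with 9692 genes called in either direction without Cornish D42 library 6 and White Plymouth Rock D1 library 6.

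The members did not fall in step with each other between E17 and D1. Ratios of 2 rows within the same library do not depend on how libraries are scaled, and their changes, unlike their levels, do not depend on transcript length. At E17 there were 21.3 HBE1 counts per 100 HBA1 counts in the median of 18 libraries, with a range of 8.82 to 29.3. At D1 the median was 5.41, with a range of 1.89 to 10.8. HBE1 thus lost ground to the adult alpha gene around hatch in each breed, with log2 changes of the ratio of -1.99 (Cornish), -1.82 (crossbred) and -1.70 (White Plymouth Rock). The adjusted p-values were 0.0227, 0.0227 and 0.0303 in 2-sided exact permutation tests of 6 against 6 libraries, adjusted over 63 ratio tests. The smallest p these tests allow is 0.00216. With medians of the 6 libraries in place of means, none of the ratio changes from E17 to D1 given here or in the next paragraph was called. Each had an adjusted exact p of 0.0909. Swapping libraries that do not set the medians leaves the statistic unchanged, so the smallest p for medians is above 0.00216. Each of these changes stood at that smallest p, so the lost calls by themselves say nothing about size. For HBAD to HBA1 the change by medians was -0.39 in crossbred and -0.42 in White Plymouth Rock, smaller than by means. In Cornish it was -0.70, larger than by means.

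Within the alpha cluster, HBAD counts per 100 HBA1 counts had a median of 54.9 at E17 and 39.4 at D1. The log2 ratio changed by -0.59, -0.66 and -0.64 in the same breeds, with adjusted exact p-values of 0.0303, 0.0227 and 0.0303. HBA1 counts per 100 counts of SLC4A1 went from a median of 804 at E17 to 316 at D1. This log2 ratio changed by -1.24, -1.40 and -1.31 in the 3 breeds in the same order, each with an adjusted exact p of 0.0227. No later step of any ratio passed, although the medians went on to 4.81 and 3.56 for HBE1 to HBA1, 40.9 and 29.3 for HBAD to HBA1, and 264 and 185 for HBA1 to SLC4A1 at D21 and D42. From D21 to D42 HBAD to HBA1 changed by -0.51, -0.45 and -0.53 in the same breeds, with adjusted exact p-values of 0.409, 0.0545 and 0.174. Without White Plymouth Rock D1 library 6, its breed's changes from E17 to D1 in HBE1 to HBA1 (-1.71) and HBAD to HBA1 (-0.67) had an adjusted exact p of 0.0545.

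**Figure D2:**
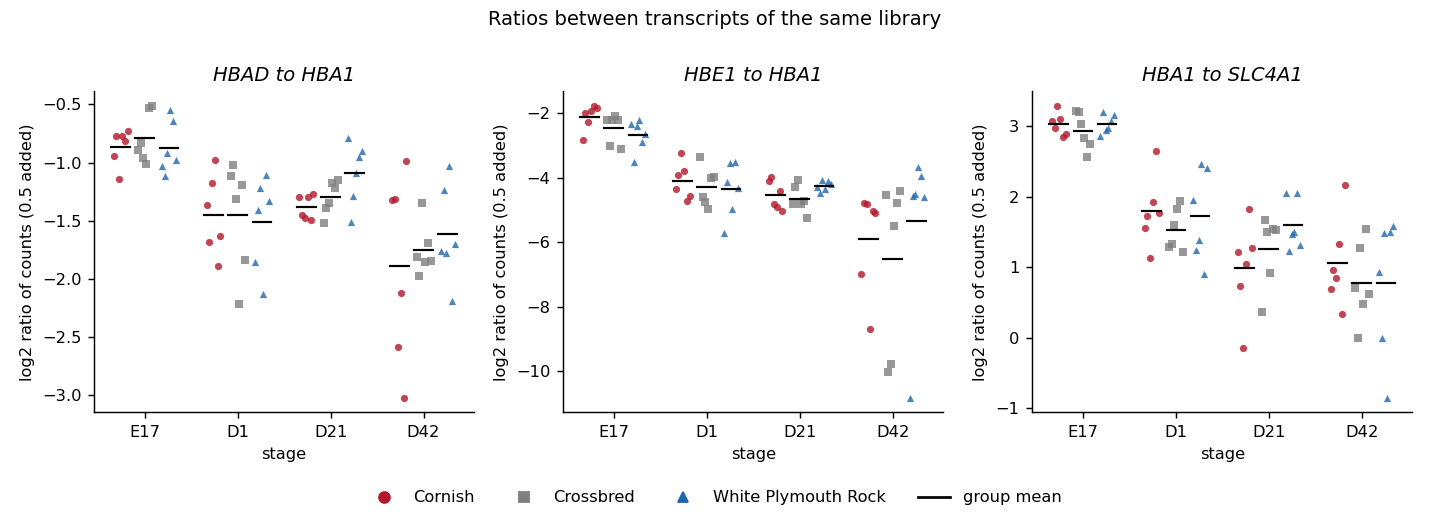
Points are log2 ratios of counts with 0.5 added, 1 point per library, and black bars are means of 6 libraries, over the 4 stages. All 3 ratios are highest at E17, where HBE1 to HBA1 has a median of 21.3 counts per 100 against 5.41 at D1. No later step was called, although the crossbred mean of HBE1 to HBA1 changes by -1.85 from D21 to D42 against -1.82 from E17 to D1. At D42, 2 of these crossbred libraries have 0 counts of HBE1.

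The comparison of the purebreds asks whether the parental breeds differed at each age. At E17 all 4 members were higher in Cornish than in White Plymouth Rock. Group means of HBA1 were 367 ± 60.2 CPM (Cornish) and 217 ± 57.8 CPM (White Plymouth Rock; SD, n = 6), and those of HBAD were 202 ± 34.4 and 121 ± 38.5. For HBE1 the means were 85.9 ± 15.7 and 36.3 ± 13.7 CPM, and for SLC4A1 44.9 ± 6.58 and 26.5 ± 6.87. Every Cornish library exceeded every White Plymouth Rock library for HBA1, HBE1 and SLC4A1, while HBAD overlapped narrowly, with a Cornish minimum of 158 against a White Plymouth Rock maximum of 160.

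The fitted log2 difference was 0.74 ± 0.18 for HBA1 (adjusted p = 0.0315), 0.72 ± 0.19 for HBAD (adjusted p = 0.0377), 1.22 ± 0.31 for HBE1 (adjusted p = 0.0373) and 0.74 ± 0.18 for SLC4A1 (adjusted p = 0.0309). As folds, Cornish stood 1.67, 1.65, 2.34 and 1.67 times higher. HBBA, which is no member, differed by 0.76 ± 0.19. Among 11717 genes tested, 1.65% were called higher in Cornish and 1.48% had all Cornish libraries above all White Plymouth Rock libraries. Fitting all 72 libraries together left the sizes at 0.75, 0.73, 1.23 and 0.75 and ended all 4 calls, with adjusted p-values of 0.761, 0.890, 0.606 and 0.312. Leaving out 1 library also ended calls.

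For HBA1 the call was lost without Cornish library 1 or 4 or White Plymouth Rock library 2, 3 or 4, at differences from 0.65 to 0.73 and adjusted p-values of 0.0528 to 0.0785. HBAD lost it without Cornish library 1, 2, 4, 5 or 6 or White Plymouth Rock library 1, 2 or 3, at 0.60 to 0.76 and adjusted p-values of 0.0523 to 0.0879. HBE1 lost it without Cornish library 2, 4, 5 or 6 or White Plymouth Rock library 2, 3 or 5, at 1.05 to 1.22 and adjusted p-values of 0.0533 to 0.0790. SLC4A1 lost it without Cornish library 1, 4, 5 or 6 or White Plymouth Rock library 2 or 3, at 0.63 to 0.75 and adjusted p-values of 0.0517 to 0.0734. The direction never changed in these fits.

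Other cell types were examined beside this difference. At E17 the summed thrombocyte markers, 8 of 10 in the table, ranged from 114.3 to 138.5 CPM in Cornish and from 71.1 to 114.4 in White Plymouth Rock. F13A1 was the largest part, with a mean of 65.2 ± 11.2 CPM over the 18 libraries of that stage (SD). ITGB3, an integrin of thrombocytes picked after its values were seen, was called higher by 0.54 ± 0.13. Endothelial markers, 12 of 14 in the table, summed to 965 to 1209 CPM in Cornish and 911 to 1057 in White Plymouth Rock. These endothelial ranges overlapped. CDH5, the cadherin of vessel lining, was picked in the same way and was called higher by 0.36 ± 0.09. ITGB3 and CDH5 are single picked genes and do not stand for the rest of their lists. None of 13 leukocyte or 7 myofibre markers tested passed in either direction. KRT14, a skin keratin, was the 1 called of 5 skin markers, with a log2 difference of -1.58 ± 0.35, lower in Cornish. The summed skin markers did not share this, with a median of 19.8 CPM in Cornish (16.8 to 24.7) and 18.3 in White Plymouth Rock (13.7 to 113.9). The part of these cells in the result was not tested.

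The ratios between members did not pass in any comparison of breeds. Over 36 exact permutation tests of breed pairs within a stage the smallest adjusted p was 0.213. At E17 HBE1 counts per 100 HBA1 counts had medians of 25.8 for Cornish, 21.8 for the crossbred and 17.5 for White Plymouth Rock. The log2 ratio of HBA1 to SLC4A1 was 3.03 ± 0.16, 2.93 ± 0.26 and 3.04 ± 0.13 (SD, n = 6) in the same order, so the globin and the exchanger differed between breeds by similar factors.

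The crossbred lay between the purebreds at E17 in the means of all 4 members, with 254 ± 66.7 CPM of HBA1, 144 ± 23.9 of HBAD, 50.5 ± 23.7 of HBE1 and 33.3 ± 8.46 of SLC4A1 (SD, n = 6). Against Cornish its log2 differences were -0.52 ± 0.18, -0.48 ± 0.19, -0.76 ± 0.31 and -0.42 ± 0.18, in the order just given. None passed adjustment, with adjusted p-values of 0.368 to 0.433, and 0.0171% of all genes were called in this comparison. All 4 had an unadjusted p under 0.05, as did 1244 of the 11717 genes tested. Against White Plymouth Rock the differences were 0.21 ± 0.18, 0.24 ± 0.19, 0.46 ± 0.31 and 0.32 ± 0.18, with adjusted p-values of 0.628 to 0.780 and 0.00853% of genes called. Measured from the mean of both parents, the crossbred differed by -0.15, -0.12, -0.15 and -0.05, with adjusted p-values of at least 0.918. No gene in the table was called against that mean by edgeR, and 671 had an unadjusted p under 0.05. A miss of the threshold does not show that the crossbred equalled the mean of its parents.

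For the crossbred at later ages, none of the 4 members was called against either purebred or their mean. At D1 its differences from Cornish were -0.64 ± 0.34 for HBA1, -0.58 ± 0.39 for HBAD, -0.73 ± 0.48 for HBE1 and -0.40 ± 0.26 for SLC4A1, with adjusted p-values of 0.851 to 0.889. At D21 they were 0.40 ± 0.35, 0.49 ± 0.38, 0.33 ± 0.42 and 0.21 ± 0.17, and at D42 -1.02 ± 0.54, -1.49 ± 0.69, -0.80 ± 1.07 and -0.35 ± 0.34. Without Cornish D42 library 6 the D42 differences of HBA1, HBAD and HBE1 were -0.07 ± 0.39, -0.03 ± 0.46 and 0.43 ± 1.07, the last with its direction turned, and that of SLC4A1 was -0.00014 ± 0.31. From White Plymouth Rock it differed at D1 by -0.45 ± 0.34, -0.39 ± 0.39, -0.33 ± 0.48 and -0.11 ± 0.26. Without White Plymouth Rock D1 library 6 all 4 of these turned direction, to 0.11 ± 0.22, 0.27 ± 0.26, 0.18 ± 0.44 and 0.15 ± 0.23. Each left-out library had the highest values of these genes in its group, so the direction of these shifts follows from the choice. At D21 and D42 the differences of the crossbred from White Plymouth Rock lay between -0.40 and 0.37. With all libraries of a stage, the fits called 0.122% of genes against Cornish at D21 and 0 in the other 8 comparisons of the crossbred at D1, D21 and D42. Against White Plymouth Rock at D21, 1 member, SLC4A1 (0.37 ± 0.17), had an unadjusted p under 0.05, as did 539 of 11513 genes. Against Cornish at D42, 1 member, HBAD, had an unadjusted p under 0.05, as did 240 of 11532 genes.

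At later ages no member was called between the purebreds. At D1 the differences, Cornish minus White Plymouth Rock, were 0.20 ± 0.34 for HBA1, 0.19 ± 0.39 for HBAD, 0.41 ± 0.48 for HBE1 and 0.30 ± 0.26 for SLC4A1, with adjusted p-values of 0.800 to 0.921. Without White Plymouth Rock D1 library 6 they were 0.75 ± 0.22, 0.85 ± 0.26, 0.91 ± 0.45 and 0.55 ± 0.23, with adjusted p-values of 0.289 to 0.559. That library had the highest values of these genes in its group, so larger differences follow from leaving it out. At D1 the fit called 0 of 11566 genes in this comparison, with 1002 at an unadjusted p under 0.05. At D21 the differences were -0.33 ± 0.35, -0.68 ± 0.38, -0.59 ± 0.42 and 0.16 ± 0.17, where 2.93% of genes were called and none was a member. The 3 globins thus had estimates below 0 at D21, none of them called, with adjusted p-values of at least 0.370.

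At D42 the differences were 1.16 ± 0.55 for HBA1, 1.61 ± 0.69 for HBAD, 0.40 ± 1.06 for HBE1 and 0.64 ± 0.34 for SLC4A1, with adjusted p-values of 0.558 to 0.958 and 0.0347% of genes called. Without Cornish library 6 they were 0.21 ± 0.39, 0.15 ± 0.46, -0.83 ± 1.07 and 0.29 ± 0.31. Here too the library had the highest values of its group, so lower differences follow from leaving it out. Whether the purebred difference depended on stage was tested directly, and no member passed. HBAD came closest, with an adjusted p of 0.247, where 0.268% of all genes were called. The E17 difference is therefore not shown to differ from those at later ages.

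**Figure D3:**
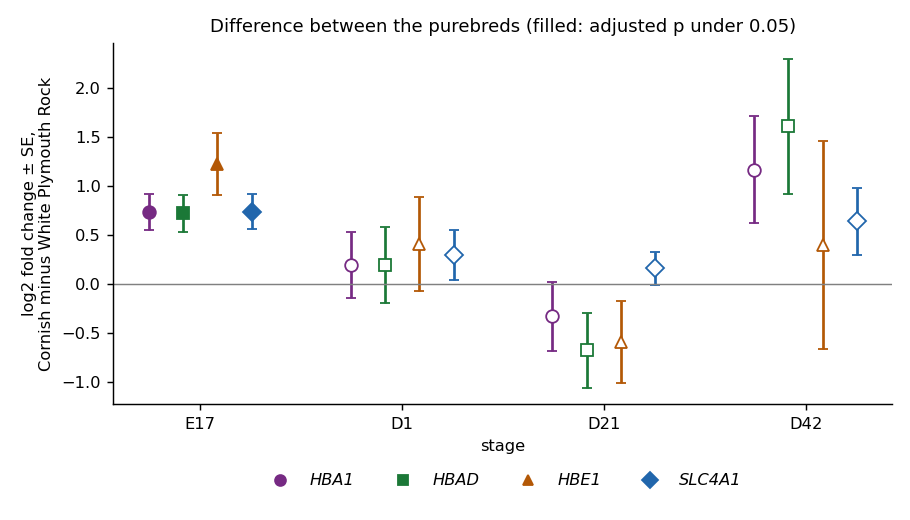
Points are fitted log2 fold changes, Cornish minus White Plymouth Rock, with bars of 1 SE, for the 4 members at each stage, and filled points have an adjusted p under 0.05. The 4 filled points are all at E17, between 0.72 and 1.22, and the globin estimates lie below 0 at D21.

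Each step was also examined within each breed. From E17 to D1 HBE1 had log2 changes of -3.42 ± 0.61 in Cornish, -3.41 ± 0.61 in crossbred and -2.60 ± 0.59 in White Plymouth Rock libraries. HBAD changed by -2.09 ± 0.49, -2.19 ± 0.49 and -1.55 ± 0.48, and HBA1 by -1.50 ± 0.41, -1.62 ± 0.41 and -0.94 ± 0.40. All 9 globin tests passed, with adjusted p-values of at most 0.0440, and 28.0%, 25.5% and 25.2% of all genes were called lower in the 3 breeds. SLC4A1 changed by -0.24 ± 0.26, -0.22 ± 0.27 and 0.21 ± 0.26 and passed in none. Without White Plymouth Rock D1 library 6, that breed's changes were -1.50, -2.21, -3.11 and -0.05 for HBA1, HBAD, HBE1 and SLC4A1. The library had the highest values of these genes in its group, so lower values follow from leaving it out. In Cornish and the crossbred no D1 library of the 3 globins reached the E17 range, where 21.1% and 17.6% of all genes were separated downward. No member's step was shown to depend on breed, with 0.0335% of genes called for that dependence.

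From D1 to D21 calls were made in Cornish alone, where HBA1 changed by -0.92 ± 0.40 (adjusted p = 0.0471) and HBE1 by -1.40 ± 0.58 (adjusted p = 0.0350), with 27.8% of genes called lower. HBAD there had -0.85 ± 0.47 and an adjusted p of 0.123. In the crossbred and White Plymouth Rock the smallest adjusted p-values were 0.329 and 0.411. The test of whether this step depends on breed gave adjusted p-values of 0.809 for HBA1 and 0.885 for HBE1, so a difference between breeds was not shown; 0.0838% of genes were called. Genes called lower made up 28.5% for the crossbred and 27.4% for White Plymouth Rock.

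From D21 to D42 the crossbred and White Plymouth Rock agreed in direction and call for all 4 members. In the crossbred HBA1 changed by -1.94 ± 0.42, HBAD by -2.40 ± 0.50, HBE1 by -2.40 ± 0.64 and SLC4A1 by -1.36 ± 0.27, with 2.52% of genes called lower. In White Plymouth Rock the changes were -2.02 ± 0.42, -2.71 ± 0.50, -2.28 ± 0.62 and -1.30 ± 0.27, with 3.92% called lower. In that breed none of the 4 had overlapping libraries, a separation found for 1.74% of genes in this direction. In Cornish, where 4.35% of genes were called lower, SLC4A1 alone passed, with -0.81 ± 0.26 (adjusted p = 0.0392).

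In Cornish the values depended on D42 library 6. With it, HBA1 changed by -0.53 ± 0.40 and HBAD by -0.43 ± 0.47, and HBE1 by -1.29 ± 0.61. Without that library alone they changed by -1.45 ± 0.37, -1.86 ± 0.42 and -2.50 ± 0.65, with adjusted p-values of 0.00882, 0.00275 and 0.00957. The library was left out because its values of these same genes were the highest of its group. A deeper fall follows from that choice, so the p-values without it are not independent tests. Without that library and White Plymouth Rock D1 library 6, the Cornish changes were -1.48 ± 0.34 for HBA1, -1.89 ± 0.39 for HBAD, -2.53 ± 0.63 for HBE1 and -1.16 ± 0.25 for SLC4A1, all with an adjusted p of at most 0.00648. The dependence of this step on breed had adjusted p-values of 0.369 for HBAD and 0.708 for HBA1, and of 0.9998 for either gene without those libraries. In the whole set 0.0168% of genes were called for that dependence.

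**Figure D4:**
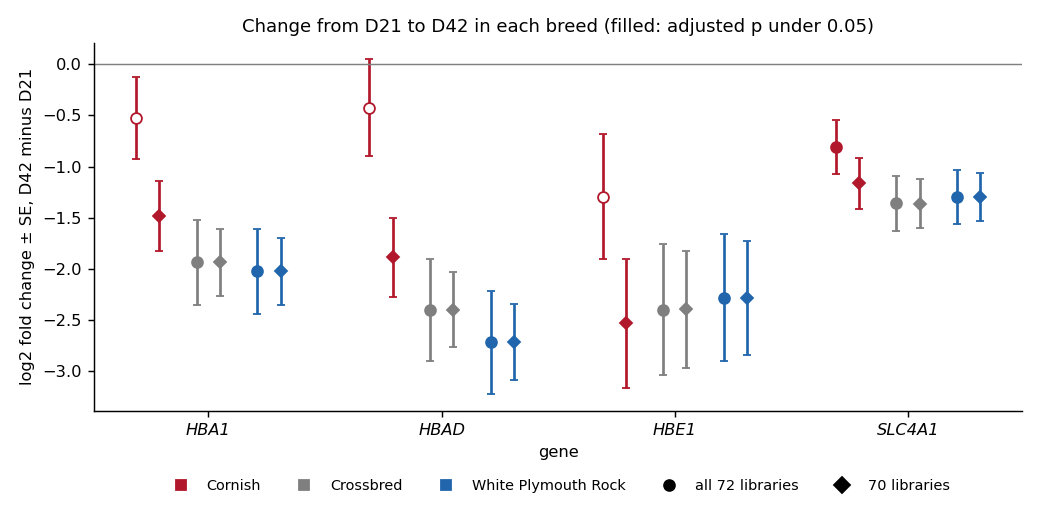
Circles are fitted log2 fold changes from D21 to D42 in each breed with all 72 libraries and diamonds those with 70, leaving out Cornish D42 library 6 and White Plymouth Rock D1 library 6; bars are 1 SE and filled symbols have an adjusted p under 0.05. The Cornish globin values move from open circles between -0.43 and -1.29 to filled diamonds between -1.48 and -2.53. Cornish D42 library 6 was left out for its high values of these genes, so the direction of this move follows from the choice.

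Other red cell genes did not all follow the members. The membrane and skeleton list has 17 genes, of which 14 were in the table. At E17, 2 of them were higher in Cornish and 0 lower, namely SLC4A1 and TSPO2, a red cell membrane protein of the translocator family, at 0.83 ± 0.21 (adjusted p = 0.0367). The median of that list was 0.11, against -0.005 over all genes. Among 9 measured erythroid regulators NFE2, a transcription factor of globin genes, was higher by 0.48 ± 0.10 (adjusted p = 0.0168), and of 10 heme synthesis genes UROS was lower by 0.57 ± 0.12 (adjusted p = 0.0166). H1F0, which RefSeq lists with the synonym H5, the linker histone of nucleated bird red cells, had 0.63 ± 0.18 and an adjusted p of 0.0592. The 5 measured genes of the enzyme and chromatin list had a median of 0.32 with none called.

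From E17 to D1 the membrane list was mixed, with 5 of 14 higher and 4 lower, where 35.6% of all genes were called lower. With Cornish D42 library 6 and White Plymouth Rock D1 library 6 left out, 8666 genes were called in either direction. Calls were thus common at this step. Whether the red cell lists differed from the rest of the table in their share of calls was not tested. TMOD1, which caps actin in the membrane skeleton, changed by -1.38 ± 0.14 and the water channel gene AQP1 by -1.36 ± 0.21, while EPB41, another membrane skeleton gene, rose by 0.79 ± 0.09. Of the 9 regulators, 2 rose and 4 fell, among them BCL11A at -1.27 ± 0.15, a repressor known from globin switching in mammals, and the transferrin receptor gene TFRC at 1.15 ± 0.17. Heme synthesis genes split into 4 higher and 5 lower. Many of these genes are also used outside red cells, and SPTB, which makes up most of the summed red blood cell markers, changed by 0.58 ± 0.13. The summed leukocyte markers had medians between 274 and 290 CPM at E17 and between 134 and 189 CPM at D1.

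From D1 to D21 the membrane list had 1 gene higher and 7 lower of 14, where 36.8% of all genes were called lower. All 14 measured leukocyte markers rose, with a median change of 2.84. Without Cornish D42 library 6 and White Plymouth Rock D1 library 6, 8708 genes were called in either direction at this step. TSPO2 changed by -2.61 ± 0.38 and TMOD1 by -2.04 ± 0.14 in that interval. The highest TSPO2 level of all 72 libraries was the 133 CPM of crossbred D1 library 1, followed by 43.7 CPM in White Plymouth Rock D1 library 6; its change was -1.78 ± 0.29 without the former and -1.39 ± 0.25 without both, and was called either way. Of 5 measured red cell enzyme and chromatin genes, 3 rose and 1 fell, led by BPGM, the bisphosphoglycerate mutase gene, at 4.48 ± 0.14 and CA2, a carbonic anhydrase gene, at 2.39 ± 0.22. Mean BPGM went from 96.1 ± 41.9 CPM at D1 to 2044 ± 336 at D21, and CA2 from 35.0 ± 14.9 to 179 ± 54.5 (SD, n = 18). No globin member was called higher at this step, and which cells held the BPGM and CA2 transcripts was not tested. From D21 to D42 the membrane list had 1 higher and 6 lower, where 15.6% of all genes were called lower. Among those that fell, RHAG, of the Rh complex in the red cell membrane, changed by -2.31 ± 0.31, EPB42, whose product binds band 3, by -1.65 ± 0.26 and AQP1 by -1.37 ± 0.21. The membrane gene that rose was GYPC, the glycophorin C gene, at 0.26 ± 0.09. Of the 5 enzyme and chromatin genes the H5 gene H1F0 alone fell, by -1.06 ± 0.17, while BPGM had -0.01 ± 0.12 and CA2 0.15 ± 0.21. The median of the membrane list was -0.43 against -0.003 over all genes. Heme synthesis genes did not share this, with 3 of 10 higher and 1 lower.

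The globin-fold genes that muscle and other tissues use had courses of their own. MB, myoglobin, the oxygen store of muscle fibres, rose by 3.65 ± 0.51 from E17 to D1, fell by 1.97 ± 0.48 to D21 and rose by 1.87 ± 0.48 to D42. Its levels were low and uneven, at 0.529 ± 0.327, 7.77 ± 11.4, 1.95 ± 2.22 and 7.38 ± 13.6 CPM in turn (SD, n = 18). The highest single libraries had 42.6 CPM at D1 and 59.7 at D42. CYGB, cytoglobin, fell by 0.85 ± 0.12 at the first step and rose by 0.42 ± 0.12 at the second. NGB, neuroglobin, rose by 1.52 ± 0.49 at the first step, but only from a mean of 0.120 to 0.357 CPM, with libraries at 0 at both stages. Between the purebreds at E17, CYGB was higher in Cornish by 0.40 ± 0.07 (adjusted p = 0.00400), while MB had -0.09 ± 0.56 and NGB 0.18 ± 0.89.

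Within groups, the members followed each other and other red cell genes from library to library. After each group's mean was subtracted over the 72 libraries, HBA1 was most alike HBBA with a Pearson r of 0.928, followed by HBAD at 0.896, H1F0 at 0.756, SLC4A1 at 0.625 and HBE1 at 0.611. HBAD was most alike HBBA at 0.906, and its list ended with THBS2 at 0.585. HBE1 had HBBA at 0.703 and H1F0 at 0.701, and SLC4A1 had HBBA at 0.744 and DMTN, the dematin gene of the membrane skeleton, at 0.632. These were the leading genes of 9279 compared. The rows share libraries, depth and, among globins, similar sequence, and the coefficients are descriptions. Spread was uneven, with a log2 SD of HBAD of 1.87 in Cornish D42 and 0.25 in Cornish E17. A few libraries may therefore carry much of r, which was not computed without them.

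Over the 12 group means, HBA1 was most alike HBAD at 0.994, HBBA at 0.991, HBE1 at 0.987, DPM2 at 0.979 and PCDH1 at 0.978. HBAD had HBBA at 0.994, and HBE1 had HBAD at 0.993, PCDH1 at 0.990, LASP1 at 0.989 and HBA1 at 0.987 among its leading genes. SLC4A1 had an r of 0.877 with HBA1, 0.853 with HBAD and 0.824 with HBE1, and its leading genes were others, with MYCN at 0.959, LDB1 at 0.934, PAM at 0.932, NCKAP1 at 0.930 and CDC42EP1 at 0.930. Over group means many genes share the course of development, so such likeness is common.

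The authors' deposited tables of breed comparisons list 13 rows for the members of 48 possible, with 8 at E17, 3 at D1, 0 at D21 and 2 at D42. The sign there is opposite to that of the first named breed minus the second in 13 of 13 rows. In the authors' deposited table for E17, HBA1 has -0.74 with a standard error of 0.16 and an unadjusted p of 7.14e-06 for Cornish against White Plymouth Rock. The authors' deposited table gives -1.23 for HBE1 and -0.74 for SLC4A1 in that comparison.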

How the data were processed

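Whole breast muscle from 72 libraries was analysed. The deposited table holds estimated counts per gene, whole numbers, not normalised. Of upstream software, cutadapt 4.4, StringTie and HISAT2 2.2.1 appear in the submitters' processing notes beside the build GRCg7b, with no roles given. The authors' deposited breed comparison tables hold, per the file headers, a baseMean signal, log2 fold changes, a test score and p-values; how they were made is not given in the sources used here.

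Breeds were compared in edgeR 4.0.16 (R 4.3.3) quasi-likelihood fits of the 18 libraries of a stage, and stage steps in one of all 72 with a mean for each of 12 groups. Scaling was by the trimmed mean of M values, genes were filtered with filterByExpr, and p-values were Benjamini-Hochberg adjusted over all genes of the fit at 0.05. SE is the log2 fold change divided by the root of F. Ratios added 0.5 counts and used scipy 1.17.1. Scripts were tested on simulated data. Alternatives included DESeq2 1.42.0, other scaling and filters, each library left out, and fits without outlying libraries, which were chosen after seeing the data.

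Members were matched by symbol; coordinates come from RefSeq genes of GRCg7b, and no sequence or transcript length was at hand. The members and gene lists were chosen with earlier results of these data known. Named were the members, the 5 genes most alike each by r over group means and within groups (mean of at least 5 CPM), up to 4 called red cell genes per comparison by size, and MB, CYGB and NGB; KRT14, ITGB3, CDH5, SPTB, EPB41, GYPC, H1F0 and HBBA, and BPGM and CA2 at D42, were named after their values were seen. 1 gene that this rule names is not reported here.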

Additional observations from a re-analysis of the deposited data

Results flagged for a closer look

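Values of 1 library far from the other 5 of its group were looked for in 48 groups (4 genes in 12 groups) with Dixon's test. It found 8, all of them the highest of their group. Chance gives about 5% of groups only for independent values with a normal spread. CPM were used unlogged here, and the 4 genes vary together in the same libraries, so an excess over chance is not shown. Most of the 8 came from 2 libraries. Cornish D42 library 6 had 160 CPM of HBA1 where the other 5 had 17.1 to 33.5, 80.8 CPM of HBAD where they had 2.16 to 13.5, 4.65 CPM of HBE1 where they had 0.0588 to 1.21, and 35.6 CPM of SLC4A1 where they had 9.51 to 17.3. White Plymouth Rock D1 library 6 had 292 CPM of HBA1 against 49.8 to 123 in the others, and 116 CPM of HBAD against 13.8 to 32.9.

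Summed markers of other cells were read in these libraries. In White Plymouth Rock D1 library 6 thrombocyte markers summed to 570 CPM against 108 to 146 in the other 5. Most of that sum was 1 gene, THBS1, whose D1 maximum of 421 CPM exceeded the whole thrombocyte sum of every other D1 library. With these 421 CPM taken off the 570, the rest of the list still lay narrowly above 146, the highest whole sum of the other 5. Which other genes carried this was not examined, and the rise was not tested. Leukocyte markers at 192 CPM lay within the 144 to 212 of the others and myofibre markers at 36134 within 25808 to 43321. In Cornish D42 library 6 thrombocyte, leukocyte, endothelial and myofibre sums of 370, 2639, 1492 and 59468 CPM all lay within the ranges of the other 5. Its red blood cell markers summed to 404 CPM against 245 to 1000 in the others. In White Plymouth Rock D1 library 6 they summed to 1031 against 904 to 1523. The membrane and skeleton sum of that D1 library, 1811, lay below the 2014 to 2355 of the others. SPTB is in both lists. Its mean was 427 ± 212 CPM at D42 and 1137 ± 252 at D1 (SD, n = 18). It makes up most of the red blood cell sums, and the other markers were not summed apart. The part of red cells and of other cells in the high values was not tested.

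White Plymouth Rock D42 library 6 had 12.8 CPM of HBAD against 3.76 to 7.06. Crossbred D1 library 1, the shallowest library, had 43.2 CPM of SLC4A1 against 21.7 to 27.0.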

How the results depend on the processing

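No called value reversed in any alternative. The 64 breed tests had 551 of 556 alternatives on the same side of the threshold and 26 of 1152 fits without 1 library changed it. All of these changes were losses among the 4 calls at E17, each of which had 18 fits without 1 library. The other breed tests were uncalled throughout, so the totals do not describe how stable the calls are. The 16 stage step tests had 156 of 160 and 18 of 576, and their changes all lay in the step from D1 to D21. For the Cornish minus White Plymouth Rock difference at E17, all 72 libraries in 1 fit gave HBA1 0.75, HBAD 0.73, HBE1 1.23 and SLC4A1 0.75 with no call, and only the 2 groups compared gave HBAD 0.72 with an adjusted p of 0.0637; the cause was not tested. HBE1 from D1 to D21 was not called under DESeq2 (-0.72, adjusted p = 0.0716), without crossbred D1 library 1 (-0.59), under the replicate block (-0.70) or without the 2 outlying libraries (-0.54). Samples sharing a replicate number did not deviate together at E17, D1 or D21 (mean r 0.013, -0.010 and -0.002), and not every pair exceeded 0.1, so numbers were not taken as pairs. At D42 the mean was 0.250, with 13 of 18 pairs over 0.1 and r of 0.65 to 0.73 among the 3 libraries numbered 3. Leaving these out or fitting the block changed no call at D42. Apart from that of HBE1 from D1 to D21, the block changed no call elsewhere. Leaving out each library in turn, that E17 difference ran from 0.65 to 0.85 for HBA1, 0.60 to 0.83 for HBAD, 1.05 to 1.32 for HBE1 and 0.63 to 0.82 for SLC4A1; from D1 to D21, HBA1 ran from -0.54 to -0.22 and HBE1 from -0.89 to -0.54. Without Cornish D42 library 6 alone, the Cornish changes from D21 to D42 were -1.45 for HBA1, -1.86 for HBAD and -2.50 for HBE1, all gained as calls. That library was left out for its high values of these genes. Calls gained without it from D21 to D42, here and in the next sentence, are therefore not independent tests. Without the 2 outlying libraries, calls were gained in Cornish for HBAD from D1 to D21 (-0.85) and from D21 to D42 for HBA1 (-1.48), HBAD (-1.89) and HBE1 (-2.53). Neither library belongs to Cornish D1 or D21, and HBAD changed there by -0.85 with all 72 libraries as well. Its SE was smaller without the 2 libraries. They were chosen by their values of these genes, so this gained call is not an independent test either. Also without them, the White Plymouth Rock changes from E17 to D1 in HBAD to HBA1 (-0.67) and HBE1 to HBA1 (-1.71) were no longer called. With medians in place of means, no ratio change from E17 to D1 was called in Cornish, crossbred and White Plymouth Rock in turn: HBAD to HBA1 -0.70, -0.39 and -0.42, HBE1 to HBA1 -2.17, -2.10 and -1.69, and HBA1 to SLC4A1 -1.28, -1.47 and -1.36, each with an adjusted exact p of 0.0909. Each stood at the smallest p that medians of 6 against 6 libraries allow, at which no call was possible here. Other causes were not tested. Depth limits HBE1 at D42, where 3 libraries had 0 counts.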
